A study of Homo sapiens with 36 samples.

Results

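The messenger RNAs of 44 DNA replication genes were followed in LoVo cells across 10 doses of a MEK inhibitor. The genes were taken by name from the 20802 genes of an amplicon panel, and they span the whole path of a replication fork, with licensing of origins, unwinding, DNA synthesis, supply of nucleotides and assembly of new chromatin. Of the 44 genes, 42 had enough counts to be tested, among 12102 tested genes of the panel. The other two were MCM2 and RPA3, a subunit of the helicase and of the single strand binding protein: MCM2 had 8 counts and RPA3 had 4 counts in all 36 libraries together, so nothing can be said of their dose response.

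LoVo is an established human colorectal cancer line, and MEK switches on the kinase ERK when growth factors signal to a cell. The inhibitor is named in the series only as compound 33 of a medicinal chemistry paper. Cells grown in F-12K medium with 10% FBS received 0.03, 0.1, 0.3, 1, 3, 10, 30, 100, 300 or 1000 nM of it, or the solvent DMSO, and were collected after 24 hours. Each dose has 3 libraries and DMSO has 6, of which 3 were assigned to each of chip 1 and chip 2. The chip of the treated libraries is not named in the labels. All cells belong to 1 cell line, and whether the 3 libraries of a group came from separate cultures is not described beyond the word replicate, so the p-values cover the spread among these libraries, which may be partly technical.

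Libraries held between 2972186 and 4751839 counts. All 10 tested markers of colorectal epithelium were detected, and EPCAM, the defining epithelial adhesion molecule, averaged 500.0 ± 10.7 CPM at 1000 nM and 513 ± 8.30 CPM in DMSO. Most of this list moved with dose. At 1000 nM 5 of the 10 were called higher (CDH1, KRT19, VIL1, CDX1 and CDX2) and 2 lower (KRT8 and KRT18), with a median log2 fold change of 0.41. At 1 nM 2 were higher (VIL1 and CDX2) and 0 lower (2 lower at an unadjusted p below 0.05). Of all tested genes 21.2% were called higher and 20.7% lower at 1000 nM, and 3.95% and 4.02% at 1 nM. The 2 lower at 1000 nM are near that share. Replicate 1 of 1 nM and replicate 1 of 1000 nM lay farther from their groups than other libraries did, with a root mean square distance over genes of 0.517 and 0.523 log2 units, and the top 10 genes took 8.97% of the counts in replicate 2 of 0.1 nM, the lowest share of the 36 libraries. The DMSO libraries of the 2 chips did not differ in any of the 12102 genes by edgeR's quasi-likelihood test (0% called, 308 genes at an unadjusted p below 0.05). No tested replication gene was among those 308. Same-numbered DMSO libraries deviated together, and with the replicate number as a block in the 6 DMSO libraries alone, a fit added after seeing the data with 2 residual degrees of freedom, 164 genes (1.36%) differed between the chips. None of the 42 replication genes was among these 164, and 2 of them had an unadjusted p below 0.05.

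DNA replication begins with licensing. In G1 the origin recognition complex, CDC6 and CDT1 load the ring of MCM proteins onto DNA, and on entry into S phase CDC45 and the GINS complex turn this ring into the active helicase. Behind it primase, the polymerases, the clamp PCNA and the ligase copy both strands. Many of these genes are transcribed around the G1 to S transition under E2F factors, and growth factor signalling through MEK and ERK is one of the inputs that drives cells of the intestinal epithelium through G1.

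Promoters of these genes were read first, because E2F letters were more frequent in them than in the promoters of the panel as a whole. RefSeq promoters of GRCh38.p14, each 250 bases before to 50 bases after a start, were matched by symbol to 37 of the 44 genes, 7 of which had several. Those without a match were MCM4, MCM5, GINS4, POLD3, RPA2, RPA3 and TONSL. The strings TTTCCCGC, TTTCGCGC, TTTGCCGC and TTTGGCGC, searched on both strands, stand here for the E2F motif. At least 1 of them was present in 19 of the 37 genes (51.4%), against 580 of 8730 tested genes with a promoter (6.64%) and 1090 of all 27305 genes with a promoter (3.99%). Counted by promoter, the shares were 42.6% of 47 for the replication genes and 3.31% of 35116 for all genes. A match is a description of letters and shows no binding.

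The promoters of helicase, clamp and fork genes with these letters, and of a polymerase and a clamp loader gene without them, are shown, since these genes stand for the contrasting dose responses described further on. MCM3, TIPIN, POLD2 and RFC4 came from a rule on the smallest adjusted p at 1000 nM in different roles, and MCM6 and PCNA were chosen after their values were seen. The same rule gave further genes that are not shown, among them CDC45, ORC6 and RRM2. These have no E2F letters in any of their promoters, and RRM2 was called higher at 1 nM. The sequences shown are therefore examples and do not measure how letters and dose response go together. Each sequence runs 5′ to 3′ on the minus strand of GRCh38.p14, starts 200 bases before the annotated start and ends 9 bases after it, and capitals mark the E2F letters on either strand. The windows lie at chr6:52284733-52284942 for MCM3, chr2:135876434-135876643 for MCM6, chr20:5126613-5126822 for PCNA, chr15:66356676-66356885 for TIPIN, chr7:44123539-44123748 for POLD2 and chr3:186806473-186806682 for RFC4.
MCM3: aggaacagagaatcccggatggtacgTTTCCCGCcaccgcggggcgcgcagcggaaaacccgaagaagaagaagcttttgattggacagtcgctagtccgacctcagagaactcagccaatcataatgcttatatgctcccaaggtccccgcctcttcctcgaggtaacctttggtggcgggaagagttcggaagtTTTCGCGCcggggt
MCM6: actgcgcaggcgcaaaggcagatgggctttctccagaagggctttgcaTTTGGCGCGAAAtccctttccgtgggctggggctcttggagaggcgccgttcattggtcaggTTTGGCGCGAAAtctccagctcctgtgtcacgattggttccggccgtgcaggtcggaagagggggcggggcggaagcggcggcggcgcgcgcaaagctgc
PCNA: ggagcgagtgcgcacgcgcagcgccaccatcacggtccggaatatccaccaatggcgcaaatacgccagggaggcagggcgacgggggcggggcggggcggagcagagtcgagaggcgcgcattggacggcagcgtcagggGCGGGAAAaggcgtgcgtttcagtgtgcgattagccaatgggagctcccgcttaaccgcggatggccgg
TIPIN: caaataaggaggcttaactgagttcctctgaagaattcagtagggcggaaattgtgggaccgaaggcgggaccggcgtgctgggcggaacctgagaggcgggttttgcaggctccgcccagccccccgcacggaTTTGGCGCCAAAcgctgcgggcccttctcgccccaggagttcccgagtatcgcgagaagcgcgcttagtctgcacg
POLD2: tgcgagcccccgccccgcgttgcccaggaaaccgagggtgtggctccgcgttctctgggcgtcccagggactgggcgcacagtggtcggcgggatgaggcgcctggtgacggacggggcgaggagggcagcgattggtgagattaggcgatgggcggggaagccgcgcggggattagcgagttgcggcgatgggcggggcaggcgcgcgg
RFC4: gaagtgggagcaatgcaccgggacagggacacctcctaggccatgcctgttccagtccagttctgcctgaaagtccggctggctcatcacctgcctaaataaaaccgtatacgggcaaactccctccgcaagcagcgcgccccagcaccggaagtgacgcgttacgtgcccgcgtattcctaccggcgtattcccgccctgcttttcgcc

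MCM3 carried the letters 174 and 4 bases before its start. In MCM6 they began 152, 148, 90 and 86 bases before it, as overlapping pairs on opposite strands, and in TIPIN an overlapping pair began 66 and 62 bases before the start. PCNA and TIPIN have 2 promoters each in the table, and the one with the letters is shown. Of 27 matches over all replication genes, 20 lay within 100 bases of a start, in 17 genes.

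**Figure D1:**
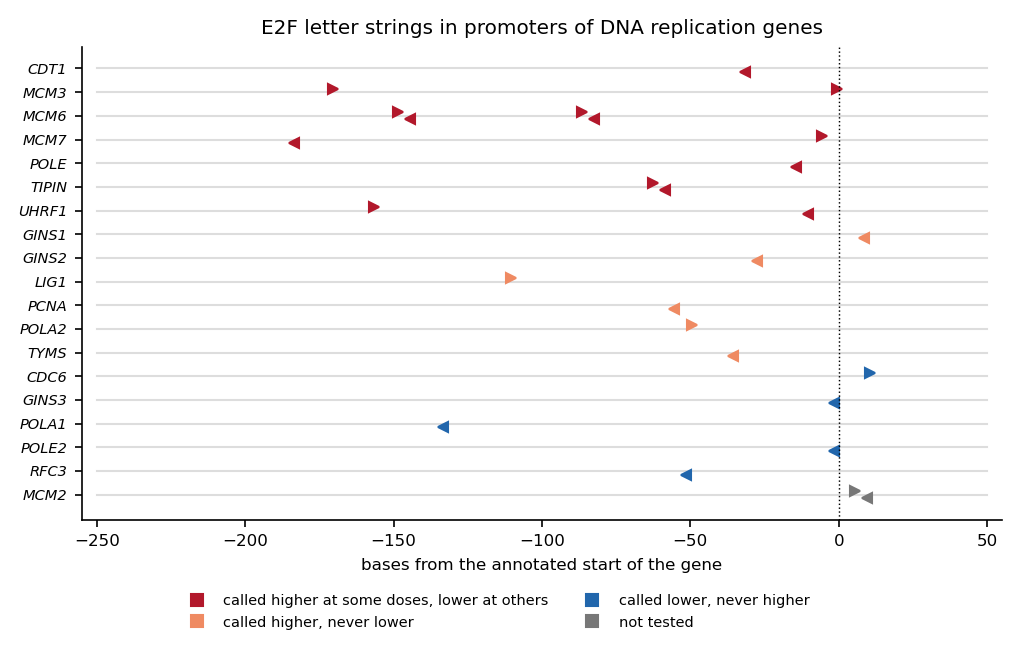
Positions of E2F letter strings in the promoters of 19 replication genes. Each row is a gene, the horizontal axis gives bases relative to the annotated start, each mark is 1 of 27 matches coloured by the gene's dose pattern, and the arrow gives the strand; 20 of the 27 marks lie within 100 bases of the start.

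Other motifs differed less in their shares. The CCAAT box (CCAAT) was present in 62.2% of the 37 genes and in 43.1% of tested genes, the E-box (CACGTG) in 13.5% and 12.8%, and the CHR strings TTTGAA and TTCGAA in 5.41% and 15.3%. These shares are descriptions with no test.

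Many of the replication genes were called higher than DMSO at 1 to 10 nM of the inhibitor, and most of them lower at 100 nM and above. A gene was called when its adjusted p was below 0.05 with the same direction against the DMSO libraries of chip 1 and against those of chip 2, in edgeR's quasi-likelihood test, adjusted after Benjamini and Hochberg over all 12102 genes. At 1 nM 19 of 42 genes were called higher and 0 lower, where 3.95% of all tested genes were called higher and 4.02% lower. At 3 nM 14 were called higher and 0 lower, against 6.66% and 6.68% of all tested genes. The dose of 10 nM was mixed, with 12 genes higher and 7 lower, beside 13.5% and 13.3% of all tested genes. The 7 lower are near that background, and were 3 to 7 when single libraries were left out. At 30 nM 3 were higher and 14 lower, with 18% of all tested genes in each direction. Above that dose nearly all calls were downward: 1 higher and 24 lower at 100 nM (18.4% and 18.8% of all tested genes), 0 and 25 at 300 nM (22.1% and 23%), and 0 and 30 at 1000 nM (21.2% and 20.7%).

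Where no gene was called in a direction, few came near. At an unadjusted p below 0.05, 1 gene was lower at 1 nM, 0 at 3 nM, 0 were higher at 300 nM and 1 at 1000 nM, and DESeq2 called 0 in each of these. In bulk RNA, fewer cells in a phase of the cell cycle and less RNA per cell cannot be told apart.

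The level of the whole list followed the same course. Summed over the 44 genes, the 3 libraries of 1 nM held 4085 to 4384 CPM (counts scaled to a common library size by TMM) and those of 1000 nM held 2011 to 2351 CPM, against 3269.7 to 3394.5 CPM in the 6 DMSO libraries. None of these ranges overlap. The median log2 fold change of the 42 genes was 0.05, -0.04, 0.15, 0.38, 0.30, 0.17, -0.17, -0.43, -0.53 and -0.73 from 0.03 to 1000 nM, while the median of all tested genes stayed between -0.0046 and 0.015. Of the 42 genes, 20 had their highest mean at 1 nM and 13 at 3 nM.

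**Figure D2:**
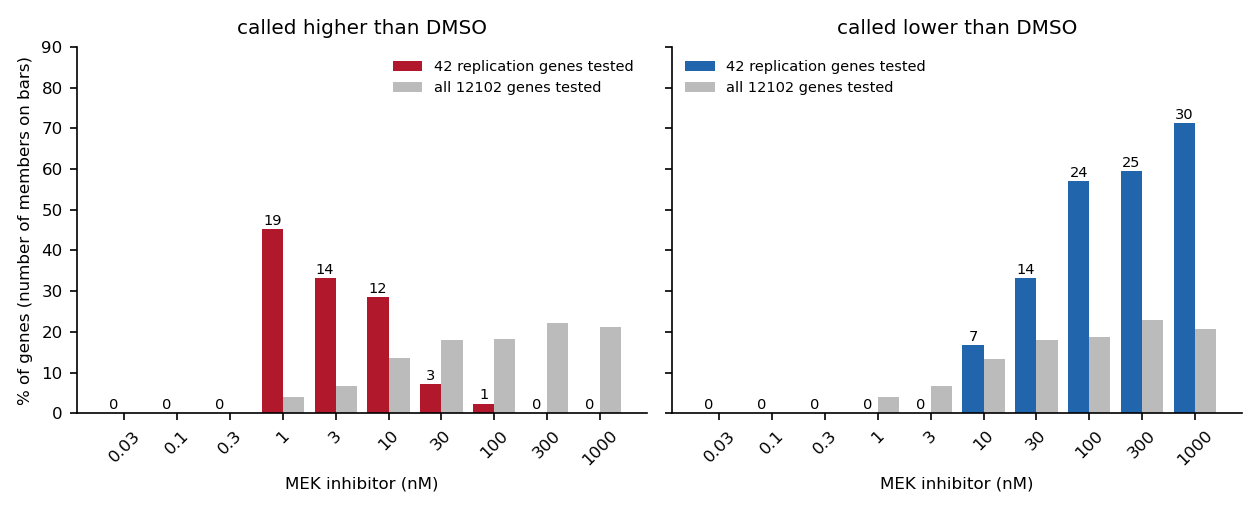
Percentage of genes called higher (left) and lower (right) than DMSO at each of 10 doses (horizontal axis, evenly spaced), for the 42 tested replication genes (coloured bars, with their number) and for all 12102 tested genes (grey bars). The coloured bars stand above the grey ones upward at 1, 3 and 10 nM and downward from 30 nM on; downward at 10 nM they are close (7 of 42 genes, beside 13.3%).

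No replication gene and no other gene was called at 0.03, 0.1 or 0.3 nM by edgeR (0%) or by DESeq2. At an unadjusted p below 0.05, edgeR had 42, 299 and 330 of the 12102 genes and DESeq2 had 30, 261 and 301 at these doses. At 0.3 nM 36 of the 42 fold changes were above 0, and 5 had an unadjusted p below 0.05, all of them upward: MCM3, MCM4, MCM6, TYMS and TONSL, chosen here after their values were seen. The median over the 42 genes was 0.126 to 0.173 log2 units above the DMSO mean in each of the 3 libraries of 0.3 nM, and between -0.034 and 0.037 in the DMSO libraries. When each dose was fitted with its DMSO libraries alone, MCM3, MCM4, MCM6 and TYMS were called higher at 0.3 nM and RFC5 lower.

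Over all doses the genes fell into a few patterns. The shares of all tested genes with these patterns were not counted, so the numbers describe the replication genes alone. Both directions were called in 15 genes, higher at a low dose and lower at a high one; 8 were called higher at some dose and never lower; 17 were called lower and never higher; and RFC1 and GINS4 were never called. E2F letters stood in the promoters of 13 of the 21 genes that were ever called higher and have a promoter in the table (61.9%), and in 5 of the 14 that were called lower and never higher (35.7%), which are CDC6, GINS3, RFC3, POLA1 and POLE2. Counted by promoter, the shares were 48.3% of 29 and 31.25% of 16. The median GC content of these promoters was 70.3% and 60.3%, and the E2F strings are rich in G and C. The difference in E2F letters was not tested.

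**Figure D3:**
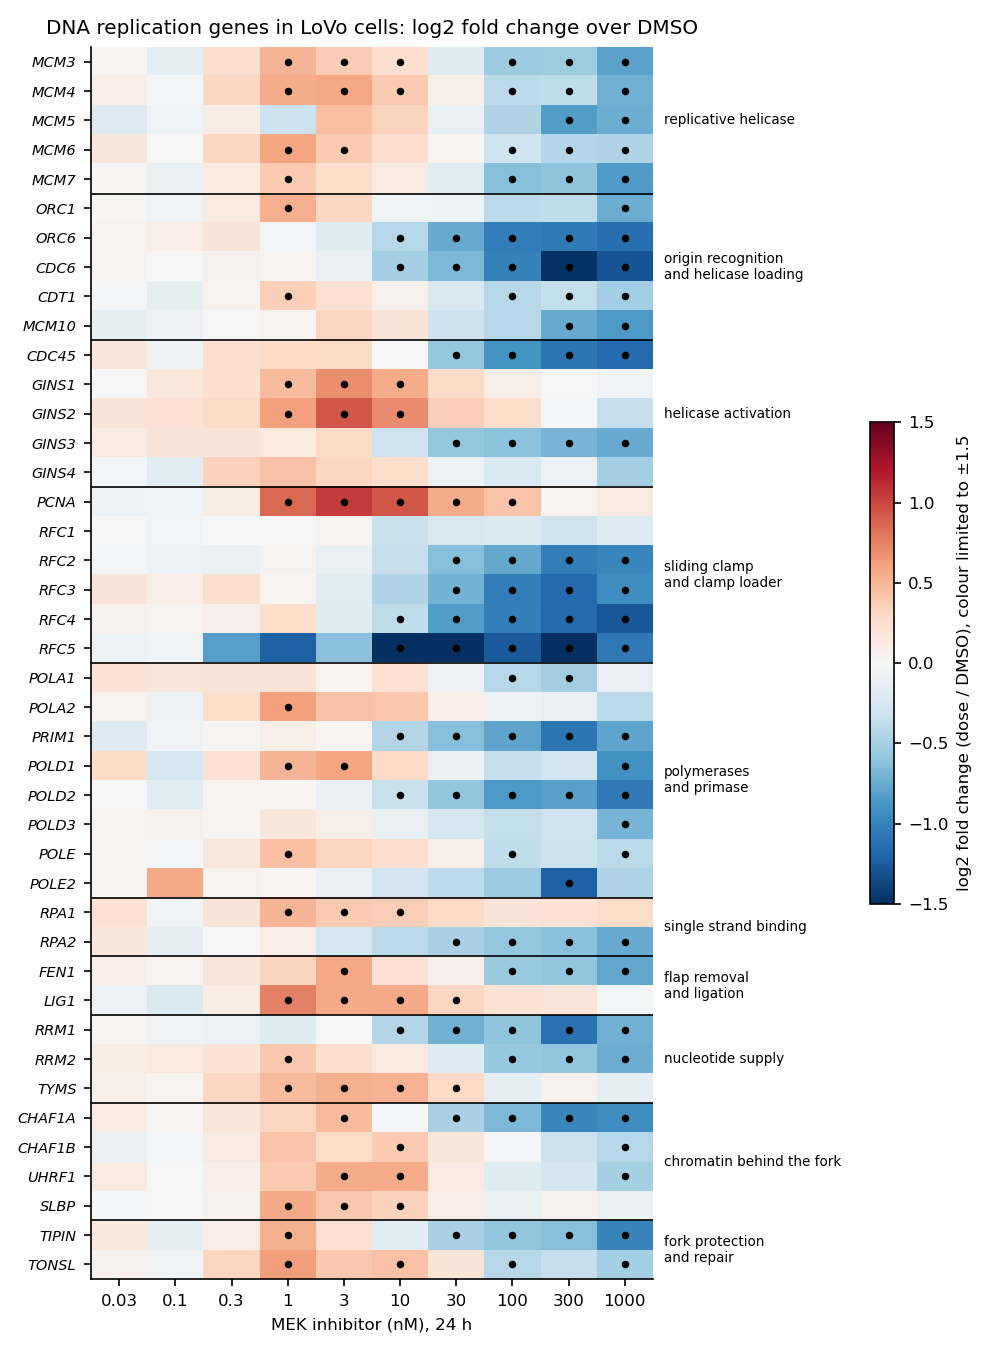
Log2 fold change against DMSO of the 42 tested replication genes (rows, grouped by role) at 10 doses (columns, 0.03 to 1000 nM), with a black dot where the gene was called. Colours above 0 gather at 1 to 10 nM and colours below 0 at 30 to 1000 nM, and PCNA and LIG1 keep upward calls up to 100 and 30 nM.

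The replicative helicase rose at low dose in 4 of its 5 tested subunits and was lower in all 5 at 300 and 1000 nM. MCM3 to MCM7 form, with MCM2, the ring that unwinds the parental strands. MCM3 had 331, 304 and 294 CPM at 1 nM and 139.9, 116 and 116 CPM at 1000 nM, against 211 to 224 CPM (median 216) in DMSO. Its groups did not overlap at either dose. The log2 fold change of MCM3 was 0.51 (SE 0.086) at 1 nM and -0.81 (SE 0.089) at 1000 nM, with adjusted p of 5.83e-05 and 1.88e-10.

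MCM7 showed the same course. It had 377, 323 and 327 CPM at 1 nM and 168, 147 and 118 CPM at 1000 nM, against 229 to 275 CPM (median 266) in DMSO, with log2 fold changes of 0.40 (SE 0.098) and -0.85 (SE 0.10). For MCM6 the libraries gave 214, 173 and 156 CPM at 1 nM and 96.5, 87.8 and 77.9 CPM at 1000 nM, against 114 to 131 CPM (median 117). MCM6 was thus 1.51 times DMSO at 1 nM and 0.731 times DMSO at 1000 nM. MCM4 gave 259, 399 and 367 CPM at 1 nM and 361, 335 and 352 CPM at 3 nM, then 162, 139.8 and 122 CPM at 1000 nM, against 209.6 to 245 CPM (median 239) in DMSO, and was called higher at 1, 3 and 10 nM and lower from 100 nM on.

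MCM5, the remaining tested subunit, was never called higher. Its 3 libraries differed widely at 1 nM, with 54.1, 147 and 72.3 CPM, against 107 to 126 CPM (median 114) in DMSO, while at 3 nM they gave 157, 155 and 163 CPM, all above DMSO (adjusted p = 0.287). At 1000 nM MCM5 fell to 71.8, 77.2 and 59.4 CPM, a log2 fold change of -0.75 (SE 0.25).

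**Figure D4:**
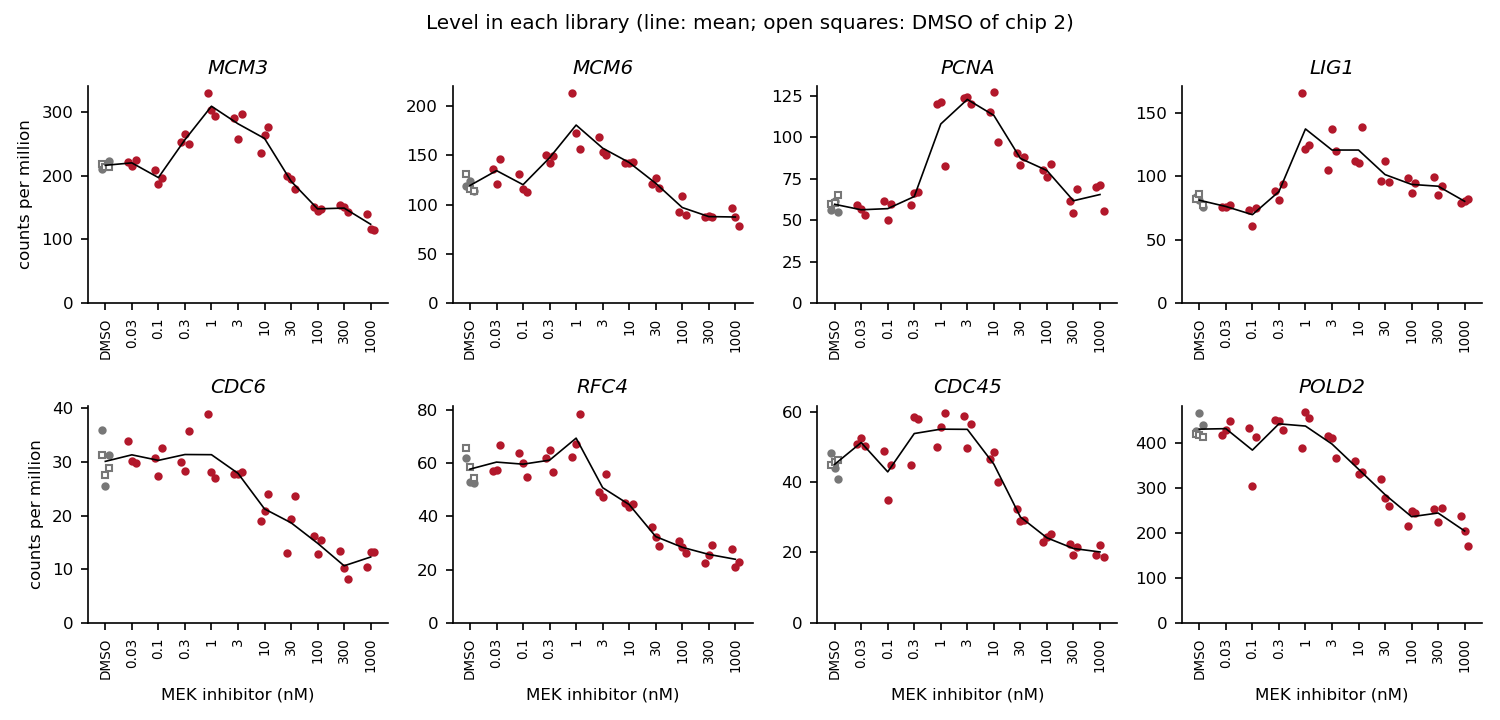
CPM in every library for MCM3, MCM6, PCNA, LIG1, CDC6, RFC4, CDC45 and POLD2, by dose with DMSO at the left (grey, open squares for chip 2), and a line through the group means. MCM3, MCM6, PCNA and LIG1 peak at 1 or 3 nM, whereas CDC6, RFC4 and POLD2 were never called higher and lie below all DMSO libraries from 10 nM on.

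Of the 5 genes grouped here under origin recognition and helicase loading, all were lower at 1000 nM, and ORC1 and CDT1 were higher at 1 nM. ORC1, an ATP-binding subunit of the origin recognition complex, had 57.6, 48.2 and 48.2 CPM at 1 nM and 22.2, 27.5 and 13.99 CPM at 1000 nM, against 29.99 to 38.8 CPM (median 35.3) in DMSO. CDT1, which brings the MCM ring to the origin, had 207, 211 and 203 CPM and 126, 109 and 100.4 CPM at these doses, against 155 to 173 CPM (median 159.7) in DMSO. All treated libraries of both genes lay outside the DMSO range, with log2 fold changes at 1 nM of 0.54 (SE 0.16) for ORC1 and 0.36 (SE 0.093) for CDT1.

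ORC6 and CDC6 had no upward call at any dose and fell from 10 nM on. ORC6, the smallest subunit of the origin complex, had 32.6, 30.2 and 35.5 CPM at 10 nM and 18.3, 21.1 and 20.7 CPM at 1000 nM, against 40.5 to 46.3 CPM (median 44.9) in DMSO. The licensing ATPase CDC6 had 38.96, 28.2 and 26.97 CPM at 1 nM, which overlap DMSO, and 10.4, 13.2 and 13.3 CPM at 1000 nM, against 25.5 to 36.1 CPM (median 30.1). At 1000 nM the log2 fold change was -1.14 (SE 0.14) for ORC6 and -1.29 (SE 0.19) for CDC6, the lowest fitted value of the 42 genes at this dose, with adjusted p of 4.53e-09 and 3.63e-07. MCM10, which helps to start the helicase, was called lower at 300 and 1000 nM and had 25.9, 19.3 and 21.5 CPM at 1000 nM, against 36.6 to 45.8 CPM (median 39.6) in DMSO.

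The helicase activators split. CDC45, the partner that travels with the MCM ring, had 49.99, 55.6 and 59.7 CPM at 1 nM, all above the DMSO range of 40.99 to 48.3 CPM (median 45.3) without a call (adjusted p = 0.185). From 30 nM on CDC45 fell, to 19.4, 22.2 and 18.8 CPM at 1000 nM, a log2 fold change of -1.16 (SE 0.14) with an adjusted p of 1.45e-09. GINS1 and GINS2, subunits of the GINS complex, rose at 1, 3 and 10 nM and were never called lower.

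GINS2 had 43.7, 44.2 and 50.5 CPM at 3 nM and 17.7, 21.6 and 17.6 CPM at 1000 nM, against 21.7 to 27.7 CPM (median 23.5) in DMSO. At 1 nM its libraries gave 25.5, 44.3 and 38.7 CPM, the first of which lies within the DMSO range. GINS1 had 35.5, 36.3 and 34.95 CPM at 3 nM and 19.98, 19.6 and 23.2 CPM at 1000 nM, against 19.1 to 25.7 CPM (median 21.1), and was 1.62 times DMSO at 3 nM and within the DMSO range at 1000 nM. GINS3 was lower at 30 nM and above, with 9.57, 4.97 and 12.8 CPM at 1000 nM against 13.8 to 18.5 CPM (median 15.1) in DMSO, and GINS4, with 8.16, 9.95 and 8.44 CPM against 10.7 to 14.7 CPM (median 12.3), was not called (adjusted p = 0.0528).

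PCNA, the sliding clamp that holds polymerases on DNA, had the highest fold change of the 42 genes at 1, 3, 10, 30 and 100 nM. It had 120.0, 122 and 82.8 CPM at 1 nM, 124, 125 and 120.4 CPM at 3 nM and 116, 127 and 97.2 CPM at 10 nM, against 55.02 to 65.1 CPM (median 60.1) in DMSO. All 9 libraries lie above all 6 DMSO libraries. PCNA was 2.06 times DMSO at 3 nM, a log2 fold change of 1.04 (SE 0.12) with an adjusted p of 8.85e-09, and was still called higher at 100 nM with 80.1, 76.3 and 83.8 CPM. At 1000 nM its libraries gave 69.8, 71.1 and 55.7 CPM, which overlap DMSO.

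The clamp loader genes had calls in 1 direction, downward. RFC1 to RFC5 form the complex that opens PCNA and sets it on DNA, and none of the 5 was called higher than DMSO at any dose. RFC4 had 44.9, 43.6 and 44.6 CPM at 10 nM and 27.9, 20.8 and 22.9 CPM at 1000 nM, against 52.5 to 65.7 CPM (median 56.4) in DMSO, and was below all DMSO libraries at both doses, with log2 fold changes of -0.38 (SE 0.13) and -1.27 (SE 0.13) and adjusted p of 0.0394 and 7.25e-11. RFC2 had 25.3, 31.01 and 35.9 CPM at 1000 nM, against 54.98 to 70.4 CPM (median 61.1). RFC3 had 15.2, 14.04 and 19.5 CPM, against 27.95 to 37.1 CPM (median 30.7). Both were lower at every dose from 30 nM on and not called at 10 nM.

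RFC5 was low and variable, with 11.7, 4.12 and 6.20 CPM at 1 nM and 2.25, 7.31 and 13.03 CPM at 1000 nM, against 14.1 to 18.7 CPM (median 16.4) in DMSO. It was called lower from 10 nM on, and lay below all DMSO libraries at 1 nM too, where the call depends on the setting (adjusted p = 0.0692). RFC1, the large subunit, had 79.4, 93.6 and 84.9 CPM at 1000 nM, all below the DMSO range of 95.03 to 103 CPM (median 97.3), with no call at any dose.

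Of the 8 polymerase and primase genes, 3 rose at 1 nM (POLA2, POLD1 and POLE) and 5 fell at 1000 nM (PRIM1, POLD1, POLD2, POLD3 and POLE). POLD2, the accessory subunit of polymerase delta, had the smallest adjusted p of the 42 genes at 1000 nM. It had 361, 331 and 336 CPM at 10 nM and 238, 204 and 172 CPM at 1000 nM, against 414 to 469 CPM (median 424) in DMSO. The treated libraries lay below all DMSO libraries at both doses, and the log2 fold change was -1.08 (SE 0.11) at 1000 nM (adjusted p = 2.09e-11). POLD1, the catalytic subunit of the same polymerase, behaved otherwise at low dose, with 66.5, 62.2 and 61.6 CPM at 3 nM and 20.8, 29.3 and 17.9 CPM at 1000 nM, against 35.8 to 47.7 CPM (median 42.1).

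POLE, the catalytic subunit of polymerase epsilon, had 61.4, 74.9 and 60.9 CPM at 1 nM and 40.8, 42.7 and 26.3 CPM at 1000 nM, against 46.1 to 51.7 CPM (median 47.02) in DMSO. POLA2, a subunit of polymerase alpha, had 56.5, 46.4 and 53.5 CPM at 1 nM and 29.8, 27.5 and 19.8 CPM at 1000 nM, against 29.99 to 38.5 CPM (median 33.2), and was called at 1 nM alone. The primase PRIM1 had 27.7, 27.8 and 24.3 CPM at 10 nM and 22.8, 20.2 and 19.5 CPM at 1000 nM, against 30.8 to 39.1 CPM (median 36.8), and was lower at each dose from 10 nM on. POLD3 was called only at 1000 nM, with 11.5, 11.7 and 9.41 CPM against 15.4 to 21.04 CPM (median 17.7) in DMSO.

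POLA1 was called lower at 100 and 300 nM and POLE2 at 300 nM alone, and neither at 1000 nM. POLA1, the catalytic subunit of polymerase alpha, had 19.5, 14.01 and 22.7 CPM at 300 nM and 23.6, 25.7 and 25.3 CPM at 1000 nM, against 23.7 to 31.4 CPM (median 27.2) in DMSO. POLE2 had 1.86, 2.33 and 3.09 CPM at 300 nM and 2.81, 4.10 and 5.31 CPM at 1000 nM, against 3.01 to 7.15 CPM (median 6.24). These 2 genes thus had lower means at 300 than at 1000 nM, and the difference between these doses was not tested.

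The single strand binding protein had no common direction. RPA1, its largest subunit, had 142, 110.2 and 106 CPM at 1 nM and 112, 91.9 and 97.7 CPM at 1000 nM, against 78.6 to 87.2 CPM (median 84.7) in DMSO, and lay above all DMSO libraries at both doses. RPA1 was called higher at 1, 3 and 10 nM, with a log2 fold change of 0.51 (SE 0.10) at 1 nM, and was not called at 1000 nM (adjusted p = 0.0837). RPA2 had 16.3, 26.3 and 15.4 CPM at 1000 nM, against 29.5 to 34.4 CPM (median 32.9), and was lower from 30 nM on.

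The last steps of lagging strand synthesis also differed from each other. LIG1, the ligase that seals Okazaki fragments, had 166, 122 and 125 CPM at 1 nM, 112, 111 and 139 CPM at 10 nM and 78.8, 80.4 and 81.8 CPM at 1000 nM, against 76.2 to 85.97 CPM (median 81.9) in DMSO. It rose at 1, 3, 10 and 30 nM, with a log2 fold change of 0.75 (SE 0.11) and an adjusted p of 1.37e-05 at 1 nM, and its libraries of 1000 nM lie inside the DMSO range. FEN1, the nuclease that removes the primer flap, had 66.9, 54.5 and 56.9 CPM at 3 nM and 19.98, 21.6 and 27.5 CPM at 1000 nM, against 36.8 to 41.6 CPM (median 40.2). FEN1 was higher at 3 nM and lower from 100 nM on, and its log2 fold change was 0.58 (SE 0.14) and -0.77 (SE 0.15) at these doses.

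The genes of nucleotide supply differed too, and RRM1 alone among them had no upward call. RRM2, the small subunit of ribonucleotide reductase, had 269, 262 and 231 CPM at 1 nM and 125, 116 and 106 CPM at 1000 nM, against 179.9 to 203 CPM (median 195) in DMSO, outside the DMSO range at both. Its log2 fold changes were 0.40 (SE 0.087) and -0.74 (SE 0.090), with adjusted p of 0.00464 and 5.65e-09. RRM1, the large subunit, had 77.9, 60.98 and 56.8 CPM at 1 nM, which reach below the DMSO range of 63.7 to 82.2 CPM (median 73.1), and 34.3, 41.5 and 56.2 CPM at 1000 nM, and was lower at every dose from 10 nM on. TYMS, which makes thymidylate, had 280.4, 258 and 275 CPM at 3 nM and 199.8, 150.4 and 161 CPM at 1000 nM, against 171 to 204 CPM (median 186), and was higher at 1, 3, 10 and 30 nM and never called lower.

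All 4 genes that restore chromatin behind the fork were called higher at 1 or more low doses, and 3 of them lower at 1000 nM. CHAF1A, the large subunit of the histone chaperone CAF-1, had 98.1, 87.5 and 79.5 CPM at 3 nM and 27.9, 40.4 and 31.8 CPM at 1000 nM, against 51.8 to 69.3 CPM (median 66.01) in DMSO. CHAF1A was higher at 3 nM and lower from 30 nM on, to 0.523 times DMSO at 1000 nM. Its partner CHAF1B had 43.98, 55.9 and 46.8 CPM at 10 nM, where it was called higher, and 31.5, 28.4 and 23.4 CPM at 1000 nM, against 32.00 to 42.7 CPM (median 36.3).

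UHRF1, which recognises hemimethylated DNA, had 74.9, 81.8 and 78.7 CPM at 10 nM and 40.5, 34.5 and 38.1 CPM at 1000 nM, against 43.6 to 57.7 CPM (median 54.9) in DMSO, with the treated libraries above and below the DMSO range. SLBP, which binds the end of histone messenger RNAs, had 137, 118 and 103 CPM at 1 nM and 88.9, 75.2 and 61.5 CPM at 1000 nM, against 72.5 to 85.01 CPM (median 82.04), and rose at 1, 3 and 10 nM without a call downward. The fork protection genes moved both ways. TIPIN, a partner of TIMELESS, had 53.8, 40.8 and 41.8 CPM at 1 nM and 19.1, 14.6 and 13.03 CPM at 1000 nM, against 27.6 to 38.3 CPM (median 29.2) in DMSO, that is 1.45 and 0.501 times DMSO. TONSL, which recognises newly replicated chromatin, had 57.9, 64.2 and 66.1 CPM at 1 nM and 31.2, 28.7 and 25.8 CPM at 1000 nM, against 38.9 to 44.8 CPM (median 40.04) in DMSO, and was higher at 1 and 10 nM and lower at 100 and 1000 nM.

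Doses a factor of 10 apart were also compared with each other, without DMSO. The chip of the treated libraries is not named, so a difference between chips cannot be told apart from dose in these steps. At 1 nM against 0.1 nM 21 of the 42 genes were higher and 1, RFC5, was lower, where 8.16% and 6.87% of all tested genes were. At 3 nM against 0.3 nM 7 were higher and 1, ORC6, was lower (6% and 7.1% of all tested genes). At 10 nM against 1 nM 0 were higher and 13 lower (7.06% and 8.36%), and at 30 nM against 3 nM 0 were higher and 27 lower (9.06% and 9.14%). At 100 nM against 10 nM 0 were higher and 25 lower, where 1.78% and 3.35% of all tested genes were called, and at 300 nM against 30 nM 0 and 7, where 0.182% and 0.331% were.

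At 1000 nM against 100 nM no replication gene was called, and 0% and 0.00826% of all tested genes were. The median log2 difference of the 42 genes was -0.22 there, with 11 genes lower and 0 higher at an unadjusted p below 0.05. DESeq2 called 0 at this step too. In the other steps with 0 higher, the number higher at an unadjusted p below 0.05 was 1 for 10 nM against 1 nM and 0 for 30 against 3 nM, 100 against 10 nM and 300 against 30 nM, and DESeq2 called 1 in the first and 0 in the others. At 0.3 nM against 0.03 nM 0 were called in either direction (0% of all tested genes), with 3 higher and 1 lower at an unadjusted p below 0.05 and 0 by DESeq2.

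The 13 genes lower at 10 nM than at 1 nM came from different roles, among them RFC4, TIPIN, ORC1, PRIM1, POLD2 and MCM6. Genes that stayed lower at all higher doses did so from different starting points. The shares of all tested genes with these starting points were not counted. The genes lower from 10 nM on are the 7 called lower at that dose, near the 13.3% of all tested genes. They were 3 to 7 when single libraries were left out, and the groups were not tested against each other. They were 7 from 10 nM on (ORC6, CDC6, RFC4, RFC5, PRIM1, POLD2 and RRM1), 7 from 30 nM on (CDC45, GINS3, RFC2, RFC3, RPA2, CHAF1A and TIPIN), 7 from 100 nM on (MCM3, MCM4, MCM6, MCM7, CDT1, FEN1 and RRM2), 2 from 300 nM on (MCM5 and MCM10), and 7 at 1000 nM but not at 300 nM (ORC1, POLD1, POLD3, POLE, CHAF1B, UHRF1 and TONSL), of which POLE and TONSL were also lower at 100 nM. Of the 7 that were lower from 10 nM on, none was called higher at any dose, while 6 of the 7 from 100 nM on were called higher at 1 nM and FEN1 was called higher at 3 nM.

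A dose-response curve with a single downward limb gave an EC50, the dose at the midpoint of the change, with a standard error of log10 EC50 below 0.2 in 11 of the 30 genes lower at 1000 nM. The values were 11.5 nM for RFC3, 13.5 nM for ORC6, 17.4 nM for PRIM1, 18.1 nM for RFC4, 21.6 nM for RFC2, 22.5 nM for POLD2 and 24.1 nM for CDC6. For CDC45 it was 40.2 nM. CHAF1A (42.3 nM), RRM2 (56.2 nM) and MCM7 (76.8 nM) were called higher at 1 or 3 nM before they fell, and since the curve has no rising limb, their values are not set against the others.

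Lists of related genes were set beside the 44. Of 35 other replication genes, 33 were tested. At 1 nM 4 were higher (among them RNASEH2C and RECQL4) and 2 lower, with a median log2 fold change of 0.016. There 3.95% of all tested genes were higher and 4.02% lower, and the 2 lower are near that share. At 1000 nM 1 (POLD4) was higher and 19 lower, with a median of -0.73, beside 21.2% and 20.7% of all tested genes. The downward part of the response was thus present in them, and the rise at 1 nM was called in 4 of 33, against 19 of the 42 replication genes above. DNMT1, the maintenance DNA methyltransferase, averaged 45.3 ± 10.3 CPM at 1000 nM and 114 ± 1.40 CPM in DMSO, a log2 fold change of -1.32 (SE 0.13), and was lower at 1 nM already (80.2 ± 12.5 CPM). POLE3, a small subunit of polymerase epsilon, averaged 29.1 ± 3.93 CPM at 1000 nM and 69.5 ± 1.79 CPM in DMSO.

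All 26 regulators of the G1 to S transition were tested. At 1 nM 4 were higher (CDK2, E2F1, TFDP1 and SKP2) and 1 lower (E2F5), where 3.95% and 4.02% of all tested genes were. At 1000 nM 2 were higher (CDKN1A and CDKN2C) and 11 lower, where 21.2% and 20.7% of all tested genes were. The 1 lower at 1 nM is near that share, and the 2 higher at 1000 nM fall below it. MYC averaged 382 ± 23.7 CPM at 1 nM, 162 ± 20.9 CPM at 10 nM and 55.9 ± 5.72 CPM at 1000 nM, against 423 ± 16.4 CPM in DMSO. The kinase CDK4 averaged 139 ± 14.8 CPM at 1000 nM and 329 ± 20.2 CPM in DMSO. E2F1, named here after its values were seen, had the course of the helicase genes, with 60.1 ± 11.2 CPM at 1 nM and 27.9 ± 0.759 CPM at 1000 nM, against 37.7 ± 3.63 CPM in DMSO; both differences were called (adjusted p = 0.00114 and 0.0157).

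Mitosis genes had no upward call. Of 30 tested, 0 were higher and 4 lower at 1 nM (CCNB2, CENPA, CENPE and NDC80), 0 and 15 at 10 nM, and 0 and 21 at 1000 nM. Their median log2 fold changes were -0.18, -0.34 and -0.50. Of all tested genes 3.95% were higher and 4.02% lower at 1 nM, 13.5% and 13.3% at 10 nM, and 21.2% and 20.7% at 1000 nM. At these doses edgeR had 0 mitosis genes higher at an unadjusted p below 0.05 too, and DESeq2 called 0 higher. MAD2L1, a spindle checkpoint gene, averaged 95.8 ± 3.20 CPM at 1 nM and 42.9 ± 5.47 CPM at 1000 nM, against 87.3 ± 2.72 CPM in DMSO. The kinesin KIF2C averaged 63.6 ± 10.7 CPM and 42.96 ± 5.26 CPM at these doses, against 82.6 ± 3.92 CPM.

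Genes known to be transcribed downstream of ERK, called ERK targets here, moved over the same doses. Of 7 such genes, 0 were higher at any dose (also 0 by edgeR at an unadjusted p below 0.05 and 0 by DESeq2). Of the same 7, 4 were lower at 1 nM, 6 at 3 nM and 7 from 10 nM on. Among all tested genes 4.02% were lower at 1 nM, 6.68% at 3 nM and 13.3% at 10 nM. DUSP6, the ERK phosphatase, averaged 36.1 ± 1.27 CPM at 1 nM, 13.5 ± 2.68 CPM at 10 nM and 1.89 ± 0.468 CPM at 1000 nM, against 64.2 ± 3.27 CPM in DMSO. At 1 nM, where 19 of the 42 replication genes were called higher, DUSP6 had a log2 fold change of -0.83 (SE 0.12). ETV4, a transcription factor of the ETS family, averaged 4.45 ± 0.559 CPM at 1000 nM and 64.6 ± 4.99 CPM in DMSO.

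**Figure D5:**
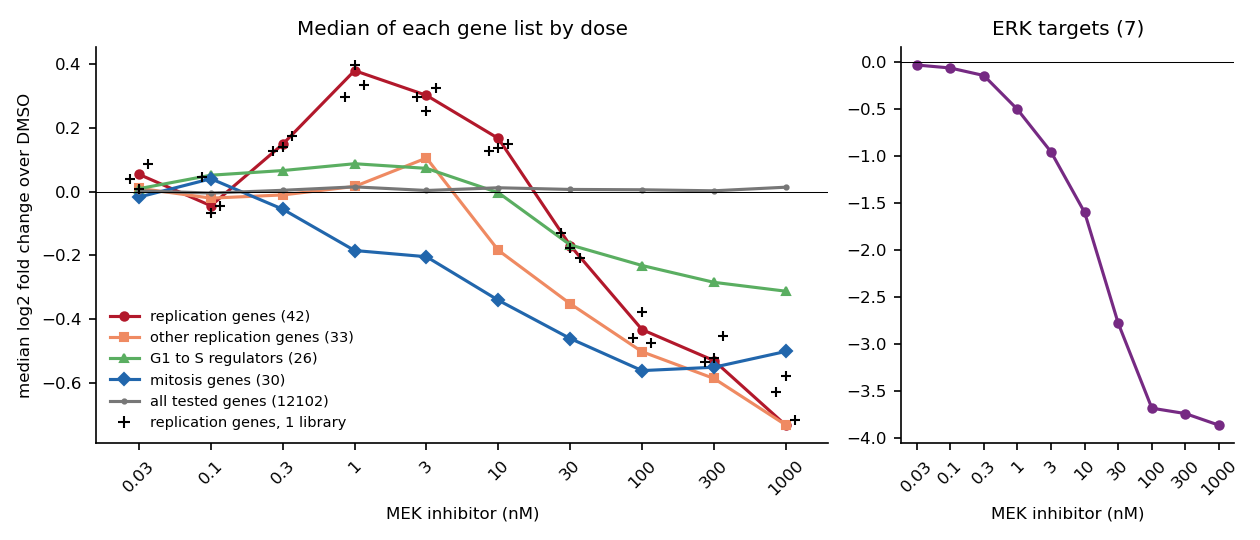
Median log2 fold change against DMSO by dose (horizontal axis, 10 doses evenly spaced) for the 42 tested replication genes, other replication genes, G1 to S regulators, mitosis genes and all tested genes (left), with crosses for the replication genes' median in single libraries, and for 7 ERK targets (right). The replication genes reach 0.38 at 1 nM and -0.73 at 1000 nM, and mitosis genes are at -0.18 and -0.50 there.

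Markers of other cells moved with dose as well. Of 9 fibroblast markers 3 passed the filter (COL1A1, COL3A1 and LUM), and all 3 were called higher at 1000 nM. A gene this low in DMSO can pass the filter through the doses where it is high. The 3 upward calls are therefore not set against the share of all tested genes. The summed level of the list was 9.31 to 9.76 CPM at 1 nM and 41.0 to 42.4 CPM at 1000 nM, against 3.28 to 4.51 CPM in DMSO. Among the markers of this list that did not pass the filter, THY1, FAP, POSTN and COL1A2 had 0 counts at 1 nM, at 1000 nM and in DMSO. Among 6 blood cell markers LYZ alone was tested, with 71.1 ± 7.76 CPM at 1000 nM and 10.9 ± 1.75 CPM in DMSO, and PTPRC and CD3E had 0 counts at 1 nM, at 1000 nM and in DMSO. None of 4 endothelial markers passed the filter. The 5 stress genes listed summed to 57.0 to 77.6 CPM at 1 nM, 44.5 to 52.6 CPM at 3 nM, 46.2 to 57.4 CPM at 10 nM and 60.8 to 79.4 CPM at 1000 nM, against 60.8 to 75.9 CPM in DMSO, so the sums of 3 and 10 nM lay below all DMSO libraries. Of the 4 tested, DDIT3 and FOS were called lower at 1 and 1000 nM and HSPA1A higher at 1000 nM. The part of these markers in the changes of the replication genes was not tested.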

How the data were processed

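RNA of LoVo cells was measured by Ion AmpliSeq amplicon sequencing in 36 libraries: 10 doses of a MEK inhibitor with 3 libraries each, and 6 DMSO libraries. The authors deposited raw counts for each gene, which were not normalized. Reads were placed on hg19 according to the submitters' processing notes, and an aligner or counter is not given in the sources used here. Each library began with 10 ng of RNA and 18 libraries shared a pool, per the labels' protocols. An amplicon's count depends on how well it amplifies, so levels of different genes were not compared.

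The analysis used edgeR 4.0.16 under R 4.3.3, on genes that passed filterByExpr (12102) and with TMM scaling. One robust quasi-likelihood fit covered all 36 libraries in 12 groups and left 24 residual degrees of freedom. A dose had to differ from DMSO of chip 1 and from DMSO of chip 2 in the same direction: the larger p of the pair was adjusted after Benjamini and Hochberg, and the threshold was 0.05. Printed fold changes use the mean of the DMSO groups, and the printed SE is the larger of the pair. CPM use the TMM library sizes. Totals over the 36 libraries were lowest for RPA3 (4), MCM2 (8), POLE2 (738) and RFC5 (1377), and counting error weighs most there. EC50 values are least squares fits of log2 CPM with a prior count of 1. On simulated counts of 11778 genes with known changes, the test of 1000 nM against DMSO recovered 24.5% of genes changed by 0.5 log2 units, 60.9% at 1 and 95.9% at 2. That of 1 nM recovered 0% at 0.25, 8.70% at 0.5 and 75.5% at 1. Few genes were changed in the simulation, while in the data 21.2% of genes were called higher and 20.7% lower at 1000 nM. The adjustment is stricter where few genes change, so these shares do not give the recovery in the data.

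DMSO libraries with the same replicate number deviated together across the chips (correlations of 0.123 to 0.271), and DMSO means ± SD are therefore over 3 pair means. Numbers did not pair treated with DMSO libraries. Values per library are given for up to 3 genes per role with the smallest adjusted p at 1000 nM, every gene called higher at any dose and every gene called at 1 nM, and for further members where a sentence turns on them. From each other list, the 2 genes with the smallest adjusted p at 1000 nM are given. The members and lists were chosen with earlier results of these data known. Promoters are RefSeq's, of GRCh38.p14, and no coordinates were converted between builds. Alternatives covered the DMSO reference, scaling, filters, DESeq2 1.42.0, a replicate block, libraries left out and the prior count.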

Additional observations from a re-analysis of the deposited data

How the results depend on the processing

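No fold change named in the text changed its sign under any alternative that was run. Of 149 called values of single replication genes, 94 kept their call under all alternatives, single libraries left out included. Library totals in place of TMM lost 9 calls, no filter on low counts 10, a fit of only the libraries compared 6 and DESeq2 5. The largest losses came from leaving out 1 DMSO library, which serves every dose, with 16 to 22 calls lost.

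Counts of calls moved as follows. At 0.3 nM a fit of only the libraries compared gave 4 higher and 1 lower. At 1 nM 1 gene, RFC5, was lower against DMSO of chip 1 alone, of chip 2 alone, the mean of both and DMSO summed over the chips, with no filter, without the 3 libraries that stand apart and with only the libraries compared, as it was at 3 nM with the last. At 10 nM 11 were lower against the mean of both DMSO groups and against DMSO summed over the chips, and 3 with library totals only. At 30 nM 6 were higher against the mean of both and 1 with no filter. RPA1 was called higher (1 gene) at 300 nM against chip 1 alone and the mean of both, and at 1000 nM against these and summed DMSO. Between doses, DESeq2 called 0 lower at 1 against 0.1 nM. Without the 3 libraries that stand apart, 11 were higher at 3 against 0.3 nM and 12 lower at 300 against 30 nM, and the main counts were 18 higher at 1 nM and 31 lower at 1000 nM.

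Leaving out 1 library at a time gave 12 to 18 higher at 1 nM, with 0 to 1 lower, and 3 to 7 lower at 10 nM. The lowest counts were 12 at 1 nM without replicate 3 of DMSO on chip 1, and at 10 nM 3 without replicate 1 of DMSO on either chip or replicate 2 or 3 of 10 nM, and 4 without replicate 2 or 3 of DMSO on chip 2. RFC5 was lower at 1 nM without replicate 1 or 2 of that dose. The count of 1 to 3 higher at 30 nM was 1 without replicate 1 of DMSO on chip 2 or replicate 2 of 30 nM, and that of 0 to 1 at 100 nM (PCNA) was 0 without replicate 2 of DMSO on chip 2 or replicate 3 of 100 nM. At 1000 nM 27 to 30 were lower.

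The replicate block, for numbers that do not pair treated with DMSO libraries (correlations of -0.128 to 0.161, 16 of 60 best with their own number), gave 19 higher at 1 nM and 29 lower at 1000 nM, and 1 higher at 10 against 1 nM, as did DESeq2. Depth limits POLE2 and RFC5 most, with 738 and 1377 counts over all 36 libraries.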
